A study of Mus musculus with 2 samples.

Results

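The 10 genes described here belong to the circadian clock and its immediate output: *Dbp*, *Tef* and *Hlf*, *Nr1d1* and *Nr1d2*, *Per1*, *Per2* and *Per3*, *Ciart* and *Arntl*. They are 10 of the 32285 genes in the count tables, and they were chosen by the ratio of their levels between the 2 libraries of the study, so that ratio is given below as a description, with no test. The cells were UV-positive lung cells, that is, cells sorted from digested and perfused lungs by the blue fluorescence of their own retinoids (vitamin A compounds), from wild-type C57BL/6 (*Lrat*+/+) male mice aged 3 months that were kept under a daily light and dark cycle. All cells belong to 1 condition, with no treatment, and they were sequenced on separate occasions as library 1 and library 2. The number of mice behind each library and the hour at which the lungs were taken are not given in the sources used here, and the occasion, the mice and the library cannot be told apart in this design.

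The clock is a feedback loop that runs in nearly every cell of the body, the lung included, with a period of about a day. ARNTL (also called BMAL1) pairs with CLOCK and binds E-boxes in the promoters of the *Per*, *Cry*, *Nr1d*, *Ciart* and *Dbp* genes, and the PER, CRY and CIART proteins then repress that pair. The NR1D (REV-ERB) receptors repress *Arntl* through ROR elements, while DBP, TEF and HLF are related factors that carry the rhythm to other genes through D-boxes, so in most tissues *Arntl* peaks when *Dbp* and *Nr1d1* are low.

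Library 1 held 48762735 unique molecular identifiers (UMIs, counted molecules) in 9669 cell barcodes and library 2 held 93970185 in 10050. Filtering to barcodes with 200 or more genes and no more than 10% mitochondrial UMIs left 9634 and 9988 cells, whose median depth was 4480 and 7577.5 UMIs, and 23 barcode sequences occurred in both libraries. A cell was assigned to a class if it had at least 3 UMIs over the 3 gate genes of exactly 1 class, which gave 7645 and 7438 stromal cells (gated on *Col1a2*, *Mfap4* and *Pdgfra*), 56 and 360 endothelial cells (*Cdh5*, *Pecam1*, *Egfl7*), 930 and 101 epithelial cells (*Epcam*, *Cdh1*, *Lamp3*) and 266 and 334 immune cells (*Ptprc*, *Laptm5*, *Cd52*) in libraries 1 and 2. Markers that the gates did not use matched the class names: *Col3a1* stood at 1069 and 1206 CPM (UMIs of the gene, scaled to the summed UMIs of the class) in stromal cells, *Cldn5* at 5011 and 4061 CPM in endothelial cells, *Sftpb* at 7449 and 9101 CPM in epithelial cells and *Tyrobp* at 3433 and 1517 CPM in immune cells. Another 420 and 1640 barcodes met the gates of several classes, and 317 and 115 met none.

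The RefSeq promoter windows of the members (build GRCm38.p6, 250 bases before to 50 after each start) show which of the loop's binding motifs stand next to these genes. Windows were found for 9 of the 10 members, *Per2* being the exception, and 12 windows were searched on both strands for the E-box CACGTG, the E'-box CACGTT, the D-box TTATGNAA and the ROR element TAGGTCA. *Ciart* held the most matches, 3 E-boxes, and *Per3* held 2 D-boxes, and their 250 bases upstream of the start are shown here with the matches in capitals.
Ciart, chr3:95882229-95882478, minus strand: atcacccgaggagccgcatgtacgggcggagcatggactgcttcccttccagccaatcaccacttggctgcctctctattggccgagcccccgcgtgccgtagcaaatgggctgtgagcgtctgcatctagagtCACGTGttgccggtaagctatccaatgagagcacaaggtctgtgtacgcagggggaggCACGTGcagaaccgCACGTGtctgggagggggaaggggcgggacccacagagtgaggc
Per3, chr4:151044666-151044915, minus strand: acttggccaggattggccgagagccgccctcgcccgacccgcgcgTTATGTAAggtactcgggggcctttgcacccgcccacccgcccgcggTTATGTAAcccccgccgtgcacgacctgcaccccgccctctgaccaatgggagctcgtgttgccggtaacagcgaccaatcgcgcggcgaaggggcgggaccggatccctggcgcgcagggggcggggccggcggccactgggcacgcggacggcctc

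The other matches are shown as 30 bases around the motif, in capitals, to place *Arntl*, the member with the opposite ratio, beside the rest. *Per1* held an E-box and a D-box, *Nr1d1* an E'-box (read here from the opposite strand) and *Tef* an E-box at each of its 2 starts. *Arntl* held a ROR element 30 bases after its second start.
Per1 E-box, chr11:69098771-69098800, plus strand: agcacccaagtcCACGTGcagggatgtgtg
Per1 D-box, chr11:69098914-69098943, plus strand: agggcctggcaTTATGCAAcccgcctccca
Nr1d1 E'-box, chr11:98775388-98775417, minus strand: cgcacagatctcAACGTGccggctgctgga
Tef E-box, first start, chr15:81802534-81802563, plus strand: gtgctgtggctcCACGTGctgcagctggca
Tef E-box, second start, chr15:81811264-81811293, plus strand: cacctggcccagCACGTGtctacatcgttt
Arntl ROR element, chr7:113207530-113207559, plus strand: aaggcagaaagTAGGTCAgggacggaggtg

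Among all 32851 windows of the same length, 7.15% held the E-box, 4.685% the E'-box, 3.385% the D-box and 2.606% the ROR element. The windows of *Dbp*, *Hlf* and *Nr1d2* held none of the 4 motifs in these letters. A match is a description of the sequence and not a measured binding site.

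In stromal cells, 9 of the 10 members were at least 2-fold higher in library 2 and *Arntl* was at least 2-fold lower. Of the 8183 genes that averaged 10 CPM or more over the libraries of this class, 3.80% were at least 2-fold higher in library 2 and 2.29% at least 2-fold lower. The members were selected on this ratio, so nothing is read from their count, here or in the other classes. The shares cover genes that averaged 10 CPM or more in the class, as 8 members did in stromal, 7 in endothelial, 7 in epithelial and 3 in immune cells, whereas the counts of members include those below that level. The median log2 ratio of those genes was 0.13 in stromal, -0.01 in endothelial, 0.11 in epithelial and 0.14 in immune cells, and the values below are not corrected for it. Intervals in brackets are exact 95% counting intervals (Poisson for a level, binomial for a ratio or a share of cells), and they do not cover differences between mice or sorts.

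*Dbp* (ENSMUSG00000059824, GRCm38 chr7:45705088-45710203, plus strand), the D-box activator, gave 323 UMIs or 9.46 CPM (8.46 to 10.6) in the stromal cells of library 1 and 13222 UMIs or 226 CPM (222 to 229) in those of library 2. The ratio was 23.8-fold (21.3 to 26.7), a log2 ratio of 4.58, and *Dbp* ranked 3 of 8183 genes by it. Over both libraries the level was 118 ± 153 CPM (SD, n = 2), so the SD exceeded the mean. *Tef* (chr15:81802421-81826863, plus strand) went from 15.8 to 93.2 CPM, 5.89-fold (5.39 to 6.44). *Hlf* (chr11:90336536-90390895, minus strand) went from 12.8 to 80.4 CPM, 6.27-fold (5.68 to 6.93). The PAR bZIP genes *Tef* and *Hlf* thus had ratios whose intervals overlapped, and *Dbp* had a ratio above both.

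*Nr1d1* (chr11:98767932-98775333, minus strand), the REV-ERB-alpha receptor gene, stood at 45.0 and 259 CPM in libraries 1 and 2, a ratio of 5.76-fold (5.47 to 6.08). *Nr1d2* (chr14:18204054-18239127, minus strand), its paralogue, stood at 21.7 and 113 CPM, 5.24-fold (4.85 to 5.66). Both repressors of *Arntl* were higher in the library in which *Arntl* was lower.

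*Per1* (chr11:69095217-69109960, plus strand) had the smallest stromal difference between the libraries of all members, with 35.4 CPM in library 1 and 82.7 CPM in library 2, 2.34-fold (2.19 to 2.49). *Per2* (chr1:91415982-91459324, minus strand) gave 72 UMIs or 2.11 CPM and 753 UMIs or 12.8 CPM, 6.09-fold (4.78 to 7.87). *Per3* (chr4:151003652-151044665, minus strand) stood at 10.7 and 40.7 CPM, 3.81-fold (3.41 to 4.26). The intervals of the 3 PERIOD genes did not overlap each other.

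*Ciart* (chr3:95878503-95882251, minus strand), which encodes the repressor CHRONO, gave 4 UMIs in 7645 stromal cells of library 1, or 0.117 CPM (0.0319 to 0.300), and 481 UMIs or 8.21 CPM (7.49 to 8.97) in 7438 cells of library 2. Its ratio of 70.0-fold (27.2 to 258) was the highest of the members, and its width comes from the 4 UMIs. *Arntl* (chr7:113207465-113314126, plus strand) gave 1084 UMIs or 31.8 CPM (29.9 to 33.7) in library 1 and 237 UMIs or 4.04 CPM (3.55 to 4.59) in library 2, a log2 ratio of -2.97 (-3.18 to -2.77). It was 7.85-fold higher in library 1 and ranked 8179 of 8183 genes. There were 0.298 *Dbp* UMIs for each *Arntl* UMI in the stromal cells of library 1 and 55.8 in those of library 2.

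**Figure D1:**
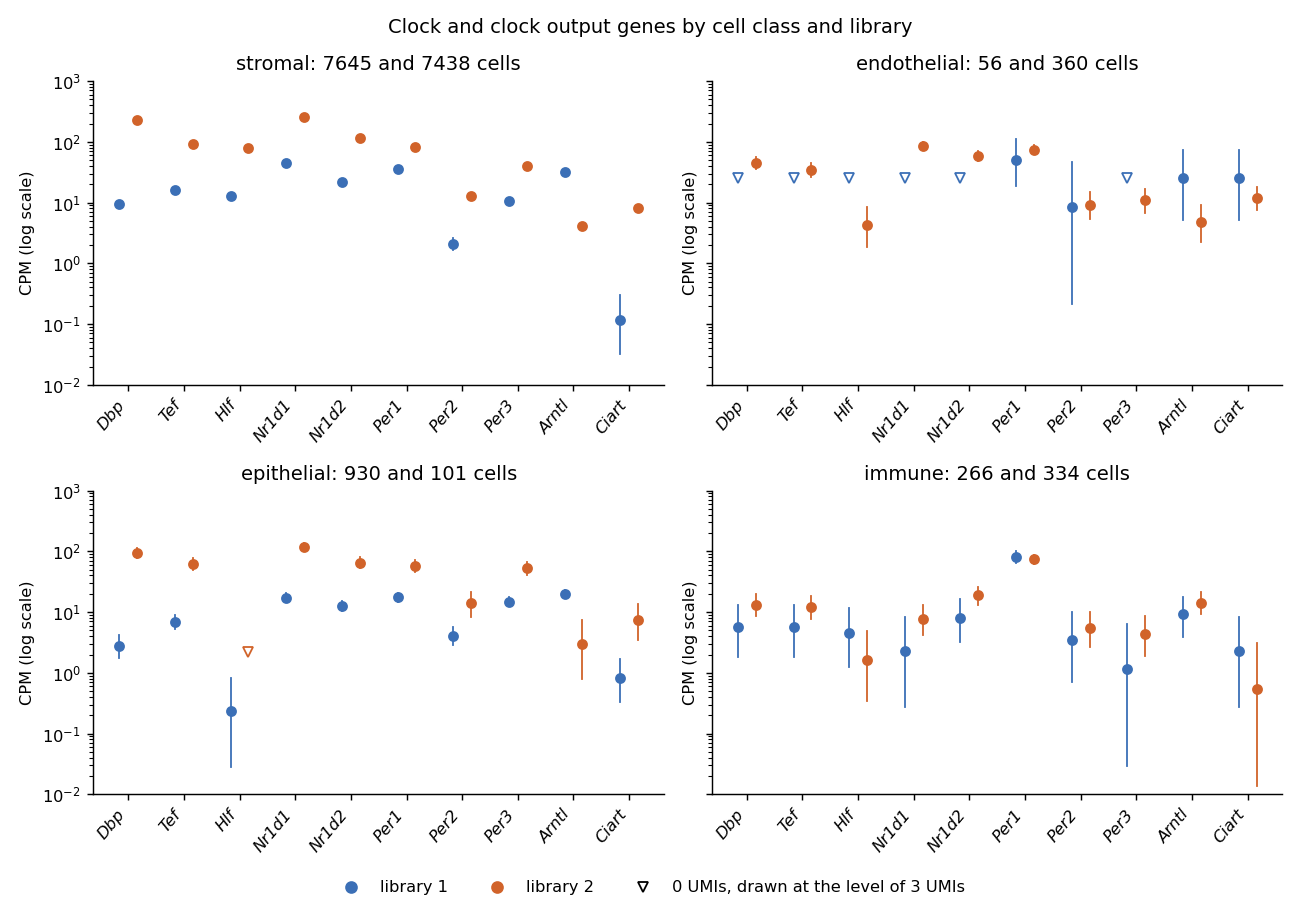
Level of each member in CPM (log scale) in the 4 cell classes, library 1 in blue and library 2 in orange, with exact 95% Poisson intervals; open triangles mark 0 UMIs and are drawn at the level that 3 UMIs would give. In stromal cells every member except *Arntl* lies higher in library 2, from *Per1* at 35.4 and 82.7 CPM to *Ciart* at 0.117 and 8.21 CPM, and *Arntl* lies lower at 31.8 and 4.04 CPM.

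The counts of 3 members may include reads of a gene on the opposite strand, since the strand setting of the counting is not given in the sources used here. *Dbp* shares 539 exonic bases with *Sphk2*, *Nr1d1* shares 263 with *Thra* and *Tef* shares 193 with the antisense gene *Gm17597*. These neighbours had other ratios or few counts: *Sphk2* stood at 11.9 and 13.7 CPM in stromal cells, *Thra* at 179 and 129 CPM, and *Gm17597* had 2 and 16 UMIs. *Arntl* shares 33 bases with *Gm45355*, which had 0 UMIs in the stromal cells of both libraries.

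The libraries differed in depth, so the ratio was also taken within bins of UMIs per stromal cell. In cells of 2000 to 4000 UMIs, *Dbp* stood at 10.9 CPM in 2557 cells of library 1 and 274 CPM in 531 cells of library 2. In cells of 8000 to 16000 UMIs it stood at 9.66 CPM in 422 cells and 210 CPM in 2556 cells. *Arntl* stood at 42.4 and 8.05 CPM in the shallower of these bins and at 21.8 and 3.31 CPM in the deeper one. Both genes thus differed between the libraries at like depth, and in both libraries *Arntl* was lower in the deeper of these bins.

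**Figure D2:**
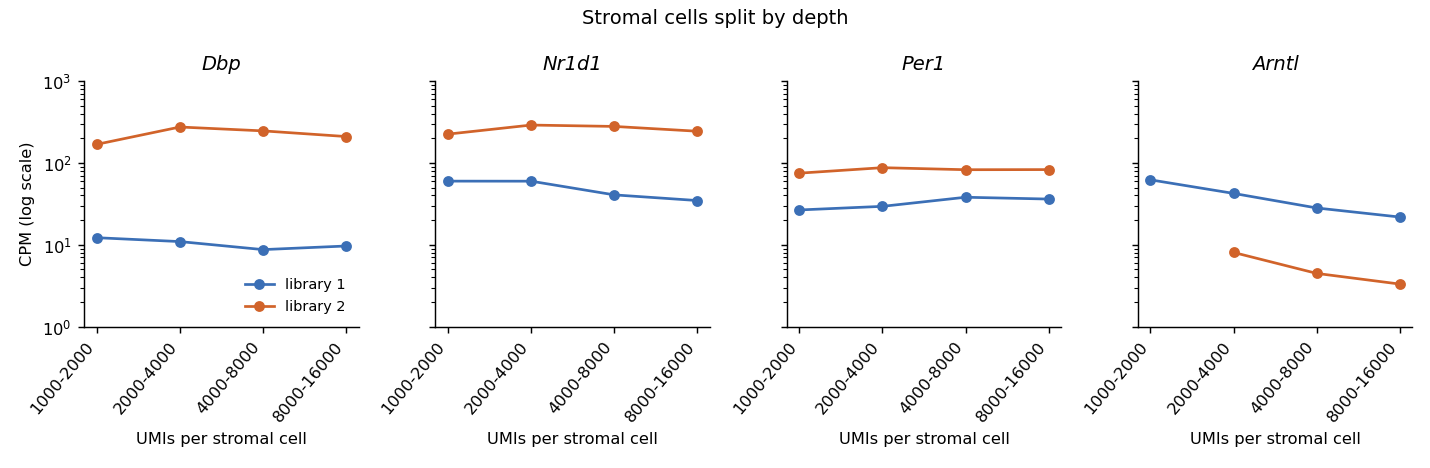
Level of *Dbp*, *Nr1d1*, *Per1* and *Arntl* in CPM (log scale) in stromal cells split by UMIs per cell, library 1 in blue and library 2 in orange; a bin with 0 UMIs has no point. In each bin drawn for both libraries the first 3 genes lie higher in library 2 (*Dbp* at 8.73 and 246 CPM in cells of 4000 to 8000 UMIs) and *Arntl* lies lower (28.1 and 4.47 CPM in the same cells).

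Immediate early genes, which rise quickly in disturbed cells, had a median log2 ratio of -0.46 in stromal cells, and *Per1* varied with them. In the tercile of stromal cells with the lowest share of UMIs in the immediate early list, *Per1* stood at 17.4 and 69.4 CPM in libraries 1 and 2, a log2 ratio of 2.00. In the tercile with the highest share it stood at 47.0 and 92.4 CPM, a log2 ratio of 0.98. *Dbp* stood at 10.8 and 222 CPM in the lowest tercile and at 8.35 and 237 CPM in the highest. The part of the immediate early genes in the *Per1* ratio was not tested.

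The same difference was seen in the share of stromal cells that held a UMI of a member. Each cell was thinned to 2000 UMIs, which 6867 of 7645 and 7395 of 7438 stromal cells reached. *Dbp* was then found in 1.88% of cells (1.57 to 2.23) in library 1 and 35.4% (34.3 to 36.5) in library 2, against 3.57% and 72.1% before thinning. *Nr1d1* was found in 8.75% (8.09 to 9.45) and 39.9% (38.8 to 41.0) of thinned cells, against 16.7% and 79.9% before. *Arntl* was found in 6.39% (5.83 to 7.0) and 0.879% (0.679 to 1.12) of thinned cells, against 13.0% and 3.04% before. No cell type of the lung is known to lack the clock, so no class gave the share that free RNA alone would give. For *Hlf*, 2 of 930 epithelial cells (0.215%) of library 1 and 0 of 101 of library 2 held a UMI. The median depths of these cells were 9340.5 and 13627 UMIs. Whether they make *Hlf* was not tested, and its share need not hold for members at other levels, such as *Dbp* and *Nr1d1*. For a count of 0 of 101 thinned cells the upper limit is 3.59%.

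Most thinned stromal cells of library 1 showed none of the 9 members other than *Arntl*: 74.7% held none, 22.3% held 1 and 0.320% held 3 of them. In library 2, 18.7% held none, 33.7% held 1, 28.5% held 2 and 13.7% held 3. The members higher in library 2 were thus spread over most stromal cells of that library. Among the thinned cells of library 2, *Dbp* was found in 12 of 65 cells with an *Arntl* UMI, 18.5% (9.92 to 30.03), and in 2608 of 7330 cells without one, 35.6% (34.5 to 36.7). In library 1 the shares were 7 of 439, 1.59% (0.643 to 3.26), and 122 of 6428, 1.90% (1.58 to 2.26). *Nr1d1* was found in 41.5% (27 of 65) and 39.9% (2925 of 7330) of these cells in library 2. Cells of a library are not replicates, and these shares carry no test.

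Epithelial cells had 8 members at least 2-fold higher and *Arntl* at least 2-fold lower in library 2, where 4.0% and 1.57% of 6875 genes were higher and lower by that much. *Dbp* gave 24 UMIs or 2.77 CPM in 930 cells and 129 UMIs or 94.5 CPM in 101 cells, 34.1-fold (21.9 to 55.1). *Tef* stood at 6.82 and 62.3 CPM, *Nr1d1* at 17.2 and 119 CPM, and *Nr1d2* at 12.5 and 65.2 CPM. *Arntl* gave 174 UMIs or 20.1 CPM and 4 UMIs or 2.93 CPM, a log2 ratio of -2.78 (-4.67 to -1.40). *Hlf* had 2 and 0 UMIs and no ratio. All 9 members with a ratio thus had it in the same direction as in stromal cells, with intervals that left out no change. After thinning to 2000 UMIs per cell the epithelial log2 ratio was -0.08 for *Arntl* and 0.02 for *Per2*, and in cells of 4000 to 8000 UMIs it was 0.62 for *Nr1d1* and 0.68 for *Per1*.

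Members and stromal markers were also given as a percent of their stromal CPM in the same library. In epithelial cells *Nr1d1* stood at 38.3% and 45.8% and *Dbp* at 29.3% and 41.9%, *Hlf* stood at 1.80% (2 UMIs) and 0%, and the stromal markers *Col3a1*, *Tcf21* and *Col1a1* stood at 0.182% to 0.522%. In the endothelial class the same markers stood at 1.48% to 6.45% over both libraries and at 1.48% to 2.85% in library 2. *Hlf* in library 2, at 5.38% (8 UMIs), lay above the markers of that library. In the immune class they stood at 0.377% to 1.34%, and the lowest members there were *Hlf* at 2.06% and *Nr1d1* at 2.98%, both in library 2.

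**Figure D3:**
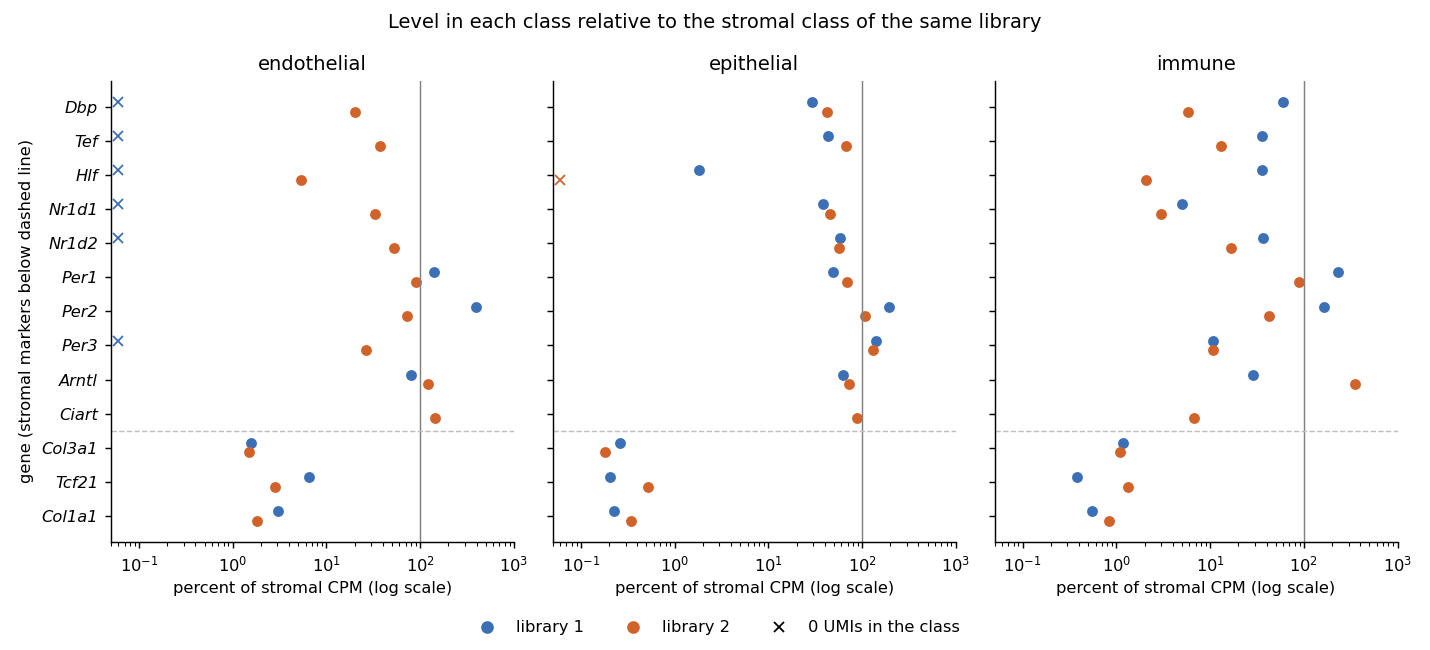
Level of each member and of 3 stromal markers (below the dashed line) in endothelial, epithelial and immune cells as a percent of the stromal CPM of the same library (log scale), library 1 in blue and library 2 in orange; crosses mark 0 UMIs, and *Ciart* in library 1 is left out since only 4 stromal UMIs stand behind it. In epithelial cells the members except *Hlf* lie between 29.3% (*Dbp*, library 1) and 192% (*Per2*, library 1), and the markers between 0.182% and 0.522%.

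Endothelial cells allowed less, since the 56 cells of library 1 held 119534 UMIs and 3 UMIs there equal 25.1 CPM. *Dbp*, *Tef*, *Hlf*, *Nr1d1*, *Nr1d2* and *Per3* had 0 UMIs in library 1. In library 2 *Nr1d1* stood at 85.5 CPM, 3.41-fold the level of 3 UMIs in library 1. *Nr1d2* stood at 59.0 CPM (2.35-fold), *Dbp* at 44.9 CPM (1.79-fold) and *Tef* at 34.6 CPM (1.38-fold). The exact counting intervals of these ratios reach down to 2.74-fold, 1.88-fold, 1.42-fold and 1.09-fold, in that order. *Arntl* gave 3 and 9 UMIs, 25.1 and 4.87 CPM, with a log2 ratio of -2.37 whose interval (-4.37 to 0.16) includes no change. *Ciart* gave 3 and 22 UMIs, a log2 ratio of -1.08 (-2.81 to 1.31). With library 1 set to 3 UMIs for counts of 0, 2 members were at least 2-fold higher and 2 at least 2-fold lower, where 12.7% and 12.4% of 8117 genes were. The interval of *Nr1d2*, 1 of the 2 higher, includes values under 2-fold.

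Immune cells had a *Per1* ratio near no change. They had too few UMIs to give the *Arntl* ratio a direction, though its interval lay above the stromal one. *Per1*, the member with the most UMIs there, stood at 81.0 CPM (63.2 to 102) in library 1 and 73.4 CPM (61.4 to 86.9) in library 2, a log2 ratio of -0.14 (-0.57 to 0.29). *Arntl* stood at 9.12 CPM (8 UMIs) and 14.3 CPM (26 UMIs), a log2 ratio of 0.65 (-0.53 to 2.01). Only *Nr1d2*, at 7.98 and 18.8 CPM, had an interval that left out no change (log2 ratio 1.23, 0.04 to 2.65). *Dbp* gave 5 and 24 UMIs, a log2 ratio of 1.21 (-0.20 to 2.96). In all, 5 members were at least 2-fold higher and 2 at least 2-fold lower, where 9.83% and 4.92% of 7240 genes were, and all but *Nr1d2* of these 7 averaged under 10 CPM. The stromal and immune intervals did not overlap for *Dbp*, *Hlf*, *Per1*, *Arntl* and *Ciart*, and they overlapped for *Tef*, *Nr1d1*, *Nr1d2*, *Per2* and *Per3*. The class held different cells in the libraries: 215 of 266 and 197 of 334 cells had at least 3 UMIs of the myeloid genes *Tyrobp* and *Fcer1g*. Within those cells *Nr1d2* had a log2 ratio of 1.87 (0.34 to 3.86) and *Per1* one of 0.05 (-0.39 to 0.51). In the other 51 and 137 immune cells *Nr1d2* had one of -0.41 (-2.41 to 2.11) and *Per1* one of -0.32 (-1.83 to 1.49). *Hlf*, with 4 and 2 UMIs, was the only member there whose interval left out no change (-2.99, -6.46 to -0.19).

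**Figure D4:**
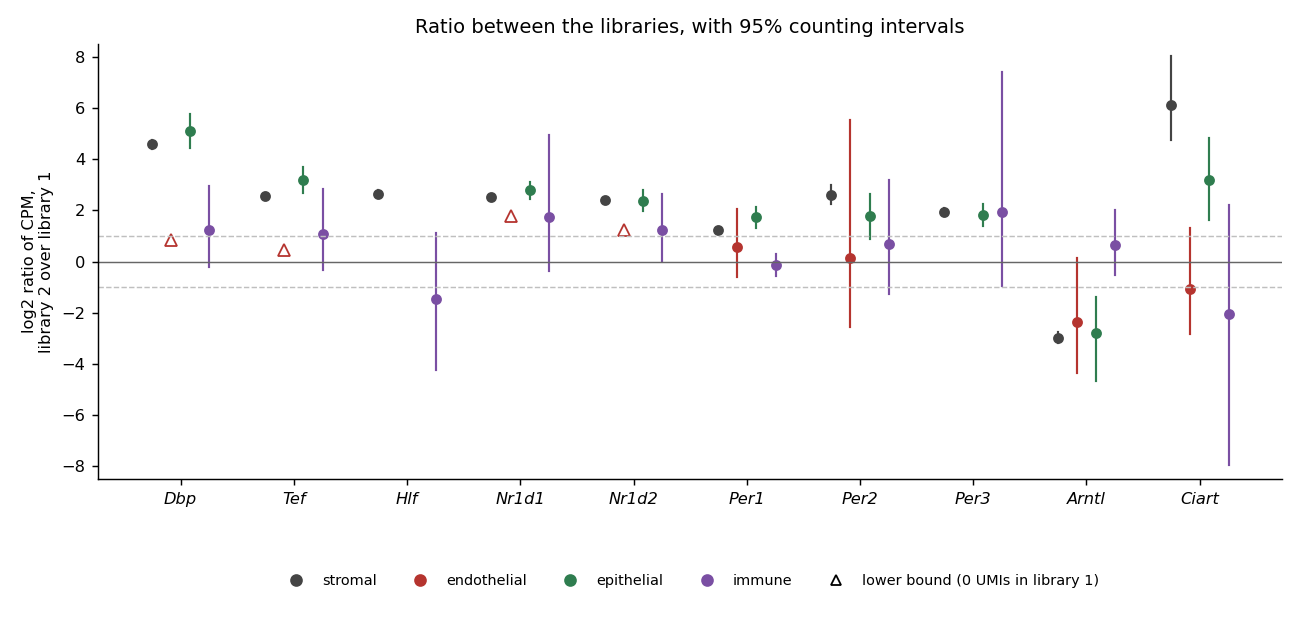
Log2 ratio of CPM, library 2 over library 1, for each member in stromal (grey), endothelial (red), epithelial (green) and immune (purple) cells, with exact 95% counting intervals. Open triangles (lower bound in the key) are ratios to the level of 3 UMIs where library 1 had 0 UMIs, drawn without their intervals. Members without a ratio have no point, and dashed lines mark 2-fold. Stromal and epithelial points lie together for *Dbp* (4.58 and 5.09) and for *Arntl* (-2.97 and -2.78), and the immune point of *Arntl* lies at 0.65.

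Genes with the same direction in several classes were counted next. Of 5977 genes with at least 10 CPM in both classes, 52 were at least 2-fold higher in library 2 in stromal and in epithelial cells, among them *Dbp*, *Nr1d1*, *Nr1d2*, *Per1*, *Per3* and *Tef*, and 29 were lower in both, among them *Arntl*. In all 4 classes 8 of 4938 genes were at least 2-fold higher, *Nr1d2* being the member among them. Its endothelial value comes from 0 and 109 UMIs, with library 1 set to 3 UMIs, and its counting interval reaches down to 1.88-fold. Its immune value rests on 7 and 34 UMIs. Under other settings its log2 ratio fell as low as 0.99 in endothelial and 0.91 in immune cells. By the distance between log2 ratios over the 4 classes, among 4882 genes outside the members and the gene lists described here, the genes most like *Dbp* were *Dusp7* (distance 3.67), *Neat1* (3.81), *Wdfy1* (3.86), *Cavin2* (4.19) and *Lars2* (4.23). Those most like *Arntl* were *Ier5l* (2.15), *Sdf2l1* (2.28), *Erh* (2.44), *Polr2l* (2.55) and *Irf1* (2.59). *Dusp7* had a stromal log2 ratio of 1.95 against 4.58 for *Dbp*, and those matched to *Arntl* lay between -1.37 (*Ier5l*) and -1.97 (*Erh*) against -2.97. The distances take values from 0 UMIs, set to 3 UMIs, as if measured. They include *Dbp* in endothelial cells (0 and 83 UMIs), *Wdfy1* in endothelial cells and *Cavin2* in immune cells. The immune value of *Dbp* rests on 5 and 24 UMIs and the endothelial one of *Arntl* on 3 and 9. Genes of the lists were left out of this search, among them *Zbtb16* of the glucocorticoid list, with a stromal log2 ratio of 4.83.

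A list of 20 other clock genes held both directions. In stromal cells 6 of the 20 were at least 2-fold higher in library 2 and 2 at least 2-fold lower, with a median log2 ratio of 0.96 over the 13 with at least 10 CPM. *Npas2*, a paralogue of *Clock* whose protein also pairs with ARNTL, went from 436 UMIs or 12.8 CPM to 31 UMIs or 0.529 CPM, 24.1-fold lower. *Nfil3*, a repressor at D-boxes, went from 64.5 to 15.2 CPM. Among those higher were *Bhlhe41* (2.11 and 20.2 CPM), the ARNTL:CLOCK-repressing gene *Cipc* (7.12 and 31.5 CPM), the cell cycle kinase gene *Wee1* (5.13 and 21.7 CPM), *Usp2* (10.7 and 36.7 CPM) and the cryptochrome gene *Cry2* (24.8 and 56.3 CPM). *Clock* itself stood at 63.1 and 69.8 CPM, a log2 ratio of 0.15 (0.07 to 0.22), beside the 7.85-fold difference of its partner *Arntl*. *Cry1*, the other cryptochrome gene, stood at 7.30 and 4.61 CPM. In epithelial cells *Npas2* gave 151 and 0 UMIs, 7.94-fold higher in library 1 with library 2 set to 3 UMIs. Of the 20 genes, 5 were at least 2-fold higher there and 2 at least 2-fold lower in library 2.

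A list of 7 genes known to respond to glucocorticoids was set beside the members. In stromal cells 6 of 7 were at least 2-fold higher in library 2, with a median log2 ratio of 2.01, and *Fkbp5* stood at 5.74 and 164 CPM and *Zbtb16* at 9.14 and 260 CPM. In epithelial cells 4 of 7 were at least 2-fold higher and 1 at least 2-fold lower, with a median of 0.99, in endothelial cells 4 and 0, with a median of 1.45, and in immune cells 2 and 1. The heat shock list had a stromal median of -0.05, with 1 of 8 genes at least 2-fold higher, and the immediate early list had 1 of 12 at least 2-fold lower. The part of these lists in the ratios of the members was not tested.

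**Figure D5:**
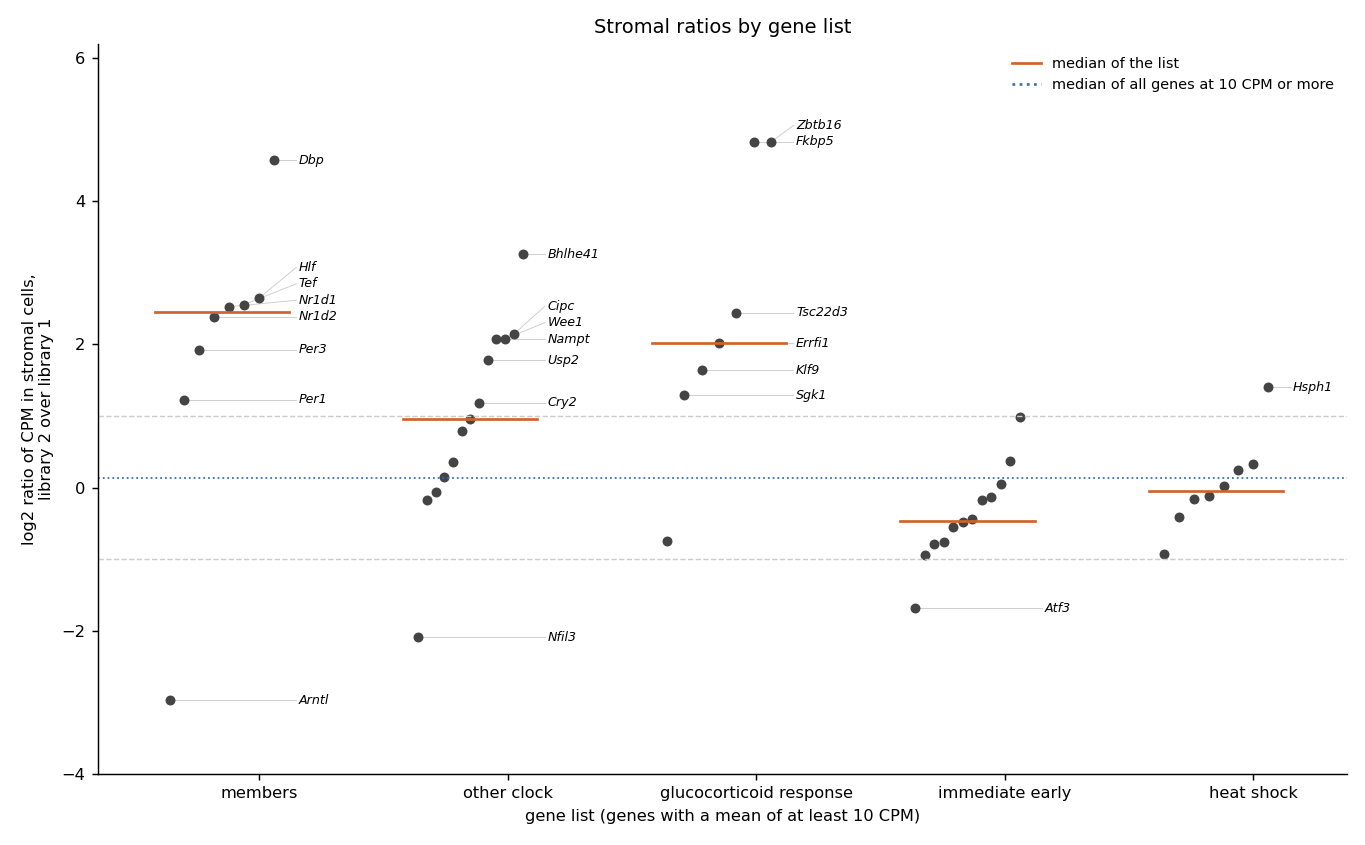
Log2 ratio of CPM in stromal cells, library 2 over library 1, for the genes of each list that averaged 10 CPM or more, with the median of each list (orange) and of all 8183 such genes (blue, dotted, 0.13); dashed lines mark 2-fold, and genes beyond them are labelled. The median is 0.96 for the other clock list and 2.01 for the glucocorticoid response list, beside 2.46 for the members, which were chosen by this ratio; *Arntl* at -2.97 is the lowest point drawn.

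Markers of other cell types differed between the libraries within the classes. The 3 red cell genes summed to 51.0 CPM in stromal cells of library 1 and 176 CPM in library 2, the 3 smooth muscle genes to 101 and 152 CPM, the 3 pericyte genes to 2.49 and 5.29 CPM, and the 3 endothelial genes outside the gate to 1.70 and 5.80 CPM. The 3 mesothelial genes summed to 1.32 and 0.0682 CPM, and the 2 platelet genes to 2.73 and 5.38 CPM. In endothelial cells the 3 pericyte genes summed to 0 and 54.7 CPM, with all 3 at 0 in library 1, the 3 epithelial genes outside the gate to 0 and 75.2 CPM, the 2 platelet genes to 0 and 53.6 CPM and the 3 smooth muscle genes to 16.7 and 64.4 CPM. In immune cells the 2 platelet genes summed to 470 and 131 CPM. Their part in the ratios was not tested. Barcodes that met both the stromal and the endothelial gate, 86 and 931 in number, had *Dbp* at 1.96 CPM (1 UMI) and 116 CPM, *Nr1d1* at 35.2 and 191 CPM and *Arntl* at 41.1 and 6.40 CPM.

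The levels of the members in the 4 classes were compared within libraries on the UMI sums. This contrast is not the one that chose the members, but it uses the same sums, and a gene chosen for a high stromal ratio tends to have a high stromal level in library 2, so the tests are not independent of the choice. edgeR's quasi-likelihood test took the 8 sums, blocked by library, with Benjamini-Hochberg adjustment over 11832 genes. The 4 sums of a library come from the same sorted suspension, and with 2 libraries the spread is known with little precision.

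Against endothelial cells, 6 of 10 members were higher in stromal cells and none lower, where 17.4% of all genes tested were higher and 14.7% lower. The median log2 difference of the members was 1.40, against 0.12 for all genes. *Hlf*, at 80.4 CPM in stromal and 4.33 CPM in endothelial cells of library 2, differed most, by 4.21 ± 0.62 (SE) on the log2 scale (edgeR, adjusted p = 4.64e-06). *Dbp* was higher by 2.46 ± 0.42 (edgeR, adjusted p = 3.74e-05), with 226 and 44.9 CPM in library 2, and *Nr1d1* by 1.88 ± 0.31, with 259 and 85.5 CPM. *Per3*, *Tef* and *Nr1d2* were higher by 2.07, 1.67 and 1.12. All of these rest on library 2, since library 1 had 0 endothelial UMIs of the 6 genes. Without the library as a block edgeR called 1 of them (*Hlf*), and DESeq2's Wald test called 3. *Per1* did not pass (log2 difference 0.13 ± 0.34, edgeR, adjusted p = 0.838), at 35.4 and 50.2 CPM in library 1 and 82.7 and 74.7 CPM in library 2.

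Against epithelial cells 3 of 10 members (*Dbp*, *Hlf* and *Nr1d1*) were higher in stromal cells and 2 (*Per2* and *Per3*) lower, shares close to the 24.2% higher and 21.8% lower among all genes tested. *Hlf* was higher by 6.22 ± 0.68 (edgeR, adjusted p = 2.04e-08), with 438 UMIs against 2 in library 1 and 4713 against 0 in library 2. *Per3* was lower by 0.98 ± 0.26 (edgeR log2 difference -0.98, adjusted p = 0.00262), at 10.7 CPM in stromal and 14.9 CPM in epithelial cells of library 1 and at 40.7 and 52.7 CPM in library 2. On the plain CPM scale the *Per3* difference was -0.48 and -0.37 in the libraries, and the trimmed mean scaling of edgeR makes it larger. *Per2* was at the edge (log2 difference -1.05 ± 0.42, edgeR, adjusted p = 0.0427), at 2.11 and 4.05 CPM in library 1 and 12.8 and 13.9 CPM in library 2. *Dbp* and *Nr1d1* were higher by 0.88 ± 0.32 and 0.71 ± 0.24 (edgeR, adjusted p = 0.0261 and 0.0177). Without the block only *Hlf* was called, and DESeq2's Wald test called *Hlf* higher and *Per3* lower.

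Against immune cells, 6 members were higher in stromal cells and *Per1* was lower, where 27.1% of all genes tested were higher and 23.7% lower. The median log2 difference of the members was 2.26, against 0.13 for all genes. *Nr1d1* was higher by 4.76 ± 0.39 (edgeR, adjusted p = 1.22e-10), at 45.0 against 2.28 CPM in library 1 and 259 against 7.72 CPM in library 2. *Hlf* was higher by 3.96 ± 0.61, *Dbp* by 3.41 ± 0.47, *Per3* by 2.93 ± 0.46, *Tef* by 2.45 ± 0.40 and *Nr1d2* by 2.06 ± 0.36. The *Dbp* difference was far smaller in library 1 (9.46 against 5.70 CPM, log2 0.73) than in library 2 (226 against 13.2 CPM, log2 4.09). *Per1* was lower by 0.78 ± 0.30 (log2 difference -0.78, edgeR, adjusted p = 0.0334), at 35.4 against 81.0 CPM in library 1 but 82.7 against 73.4 CPM in library 2, where the plain log2 difference was 0.17. Without the block 3 members were called higher and none lower.

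Differences for *Arntl* and *Ciart* passed in no class contrast. *Arntl* stood above immune cells in the stromal class of library 1 (31.8 against 9.12 CPM) and below them in library 2 (4.04 against 14.3 CPM), and its log2 difference was -0.54 ± 0.52 (edgeR, adjusted p = 0.408). Against epithelial cells it was -0.16 ± 0.45 after edgeR's scaling and 0.66 and 0.47 on the plain CPM scale of the libraries.

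The order of the classes for *Dbp* in library 2 was stromal (226 CPM), epithelial (94.5 CPM, 78.9 to 112), endothelial (44.9 CPM, 35.8 to 55.7) and immune (13.2 CPM, 8.48 to 19.7), with no overlap of the counting intervals. In library 1 stromal cells (9.46 CPM) and immune cells (5.70 CPM, 1.85 to 13.3) were not separated by theirs, and epithelial cells (2.77 CPM, 1.78 to 4.13) lay below the stromal interval. After thinning to 2000 UMIs per cell, *Dbp* was found in library 2 in 35.4% of stromal, 23.8% (15.9 to 33.3) of epithelial, 8.65% (5.78 to 12.3) of endothelial and 3.87% (2.02 to 6.66) of immune cells.

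The other clock genes were spread over the classes too. Of 16 tested, 6 were higher in stromal than in endothelial cells and 1 lower, 2 higher and 1 lower than in epithelial cells, and 7 higher and 3 lower than in immune cells. *Rora*, an activator at ROR elements, was higher in stromal cells in all 3 contrasts, by 2.02, 0.84 and 2.31 on the log2 scale, at 116 and 226 CPM in stromal cells and 27.4 and 29.2 CPM in immune cells. *Usp2*, a ubiquitin protease gene, was also higher in all 3, and by 2.13 against epithelial cells, with 0 endothelial UMIs in both libraries. *Nfil3* was higher than in endothelial cells (64.5 against 8.37 CPM in library 1) and lower than in immune cells (15.2 against 62.9 CPM in library 2). The endothelial class held 1 *Nfil3* UMI in each library. *Cry2* was higher than in endothelial and immune cells, *Clock* was higher than in immune cells, and *Bhlhe40* and *Timeless* were lower than in immune cells.

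Within the stromal class, fibroblasts with markers of the adventitia (*Pi16*, *Dcn*, *Col14a1*) were compared with those with markers of the alveoli (*Npnt*, *Limch1*, *Itga8*). No member of the 9 tested differed in edgeR's test (adjusted over 12315 genes), where 2.41% of all genes were higher and 1.56% lower in adventitial cells. One of the 9 (*Nr1d1*) had an unadjusted p under 0.05, and DESeq2 called none. The gate left only 106 and 6 adventitial cells, against 6309 and 6096 alveolar ones, so the comparison had little power. When cells were instead divided by the larger of the 2 marker sums, a rule chosen after the data were seen that gave 557 and 261 adventitial cells, *Hlf* was higher in adventitial cells by 0.51 (edgeR, adjusted p = 0.0198; 19.6 against 12.1 CPM and 103 against 79.2 CPM). *Nr1d1* was lower there, with a log2 difference of -0.53 (edgeR, adjusted p = 0.0205), at 24.0 against 47.5 CPM in library 1 and 213 against 262 CPM in library 2. In both of the sets so divided 9 members had higher levels in library 2 and *Arntl* a lower one.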

How the data were processed

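Per the labels, UV-positive cells of mouse lungs were sequenced with 10x Genomics 3' chemistry, and the submitters' processing notes name Cell Ranger 5.0.1 and mm10. The authors deposited raw UMI counts per gene and barcode, not normalized, for 2 libraries (WI001 and WI02). The members and gene lists were chosen with earlier results of these data known. Cells with fewer than 200 genes or more than 10% mitochondrial UMIs were dropped, and the counts of cells in exactly 1 class were summed per class and library and scaled to CPM. Cells were gated as singlets by light scatter in the sort, no doublet caller was run here, and barcodes that met several class gates were left out of the class sums. Library ratios have 1 library on each side and no test. Exact 95% intervals (Poisson for levels, Clopper-Pearson for shares) describe counting error alone. A gene with 0 UMIs was set to a floor of 3 UMIs per library for bounds. UMIs were thinned with a fixed seed.

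Class sums were compared with edgeR 4.0.16 in R 4.3.3 (trimmed mean of M values scaling, default filter by expression, two-sided quasi-likelihood test, library as a block, Benjamini-Hochberg adjusted p under 0.05 called), after a test on simulated data. The block pairs the sums because those of a library come from the same cell suspension. DESeq2 1.42.0 and the other alternatives are described at the end. Positions come from GENCODE on GRCm38 and promoters from RefSeq. All 10 members are named. Named genes of the other clock list passed 2-fold in at least 2 classes or a class contrast, or are its core partners (*Clock*, *Cry1*), named after their values were seen. One gene of that list is not reported here by name. Tests were run in Python 3.11.15 and R.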

Additional observations from a re-analysis of the deposited data

How the results depend on the processing

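The ratios between the libraries, which have no test and no replicate to leave out, were recomputed first. Of 330 values under other gates, depths, scalings and cell subsets, 293 stayed within their counting interval or, for a bound from 0 UMIs, close to the bound. Another 37 moved further, and 0 called values changed sign. Settings that gave no ratio are not among the 330. In stromal cells 10 ratios gave 100 values, but in endothelial cells 8 ratios gave only 54. In stromal cells the log2 ratio stayed between 4.36 and 4.83 for *Dbp*, between -3.08 and -2.66 for *Arntl* and between 0.98 and 2.00 for *Per1*. The stromal counts of 9 members higher and 1 lower stayed within 1.5 times of those values. The epithelial counts of 8 and 1 became 5 and 0 in cells of 4000 to 8000 UMIs, and the lower count was also 0 after thinning to 2000 UMIs per cell.

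The endothelial count of 2 members higher became 1 in cells without gate UMIs of other classes. It became 0 after thinning, in cells of 4000 to 8000 UMIs, and in the lowest and the highest tercile of immediate early share. The mean of the CPM of each cell used no floor. *Nr1d1* and *Nr1d2*, with 0 endothelial UMIs in library 1, thus had no ratio there and could not be counted. The count of 2 lower became 1 after thinning and in cells of 4000 to 8000 UMIs and 0 in the lowest tercile. The immune count of 5 higher became 2 without other gate UMIs, 3 after thinning, 1 in the lowest tercile and 2 in the highest, and the count of 2 lower became 1 after thinning and in the highest tercile and 0 in cells of 4000 to 8000 UMIs and in the lowest tercile. The highest tercile was chosen after the data were seen.

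Without the replicate block, the class tests called 1 member higher against endothelial, 1 against epithelial and 3 against immune cells, and 0 lower in the last 2, since the difference between the libraries then enters the spread. DESeq2's Wald test called 3 higher against endothelial, 1 higher and 1 lower against epithelial and 0 lower against immune cells. With no filter on low counts *Per2* was no longer lower than in epithelial cells (1 member lower) nor *Per1* than in immune cells (0 lower), and without other gate UMIs 1 member was lower than in epithelial cells. DESeq2's size factors within edgeR ended the call of *Dbp* against epithelial cells (adjusted p = 0.062). The *Per1* difference between stromal and immune cells reversed with the library left out, from -1.19 without replicate 2 to 0.17 without replicate 1, as plain log2 CPM differences with no test. Between fibroblast sets, 1 member was lower without the block, and 1 was higher and 1 lower when sets were divided by the larger marker sum. The causes of the other changes were not tested.

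Depth limits the small classes: in library 1, 3 UMIs equal 25.1 CPM of the endothelial sum and 3.42 CPM of the immune sum, and in library 2 they equal 2.20 CPM of the epithelial, 1.65 CPM of the immune and 1.62 CPM of the endothelial sum.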
